A study of Mus musculus with 8 samples.

Results

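The 36 genes described here encode the enzymes and transporters that take glucose up and break it down to lactate, store it as glycogen or pass it through the pentose phosphate pathway. They were chosen by name, as genes of these pathways, from a table of 23597 genes, and all 36 names were found. No measured value enters that rule, but the list was drawn up with earlier results of these libraries known. Dry eye had been induced in the mice with scopolamine, which blocks muscarinic receptors and so lowers tear secretion, and whole corneas were taken for RNA-seq at day 14 of its injection. The mice of 4 samples (ICI) were also given ICI 118551, a blocker of β2-adrenergic receptors, and those of the other 4 (Scop) were not. Each sample was a pool of 4 corneas, all 8 samples carried the scopolamine treatment, and no cornea without dry eye was among them. The sources used here do not give strain, sex or age of the mice, nor how mice were shared out among the pools. The p-values therefore speak of the spread over these 8 samples, which may be technical.

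Glycolysis cleaves glucose to pyruvate, which lactate dehydrogenase turns into lactate, and monocarboxylate transporters carry the lactate out of the cell. The cornea has no blood vessels, and its epithelium is known for taking glucose from the aqueous humour, holding glycogen and releasing lactate. The pentose phosphate pathway branches off at glucose-6-phosphate, supplies NADPH and ribose, and is known to be very active in corneal epithelium, where transketolase is a crystallin-like major protein.

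Values are FPKM, fragments scaled by gene length and by library depth, so that levels of different genes can be set side by side as far as the lengths used are right. Libraries held 34354346 to 39885822 counted fragments, worked out from the step size of each gene's FPKM. The corneal epithelial keratin gene Krt12 stood between 15153 and 18414 FPKM in all 8 libraries. The summed level of 12 epithelial marker genes lay between 35711 and 37918 FPKM in ICI and between 35673 and 40626 in Scop. Scop replicate 3 stood apart, with 736 FPKM over 10 stromal marker genes, against 1912 to 2583 in the other 7 libraries. ICI replicate 1 stood apart in the summed level of 7 marker genes of the corneal endothelium, with 583 FPKM against 218 to 390.3 in the others. Gm26917, a locus that collects reads of ribosomal RNA, stood between 3666 and 3836 FPKM in the ICI libraries. It had 689, 912 and 1119.6 FPKM in the first 3 Scop libraries and 4936 in Scop replicate 4. In whole corneas, fewer cells of a type and less RNA per cell cannot be told apart.

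The pentose phosphate genes and the trunk of glycolysis made up most of the signal. Tkt, which encodes transketolase, was by far the most abundant member. ICI replicates 1 to 4 had 1602, 1803, 1844 and 1669 FPKM of it, and Scop replicates 1 to 4 had 1648, 1671, 1718 and 1712. The groups overlapped, and the log2 fold change, ICI minus Scop, was 0.03 (SE 0.06). Taldo1, the transaldolase that works beside it, followed with 254 ± 12.4 against 253 ± 16.0 FPKM (ICI first, then Scop, each a mean ± SD with n = 4, as in all such pairs that follow). Next came Eno1, an enolase (137 ± 9.40 against 137 ± 10.01), the triose phosphate isomerase gene Tpi1 (141 ± 11.7 against 130 ± 5.47) and G6pdx, the dehydrogenase that opens the pentose phosphate pathway (119 ± 8.33 against 121 ± 6.30). Pgk1, phosphoglycerate kinase, was at 95.9 ± 8.54 against 95.8 ± 6.98 FPKM. All 6 of these genes, the ones with the highest mean, overlapped between the groups. By library, with ICI 1 to 4 before Scop 1 to 4, Taldo1 was at 238, 263, 249.996 and 265 against 243, 242, 276 and 251 FPKM. Eno1 was at 149, 129, 139 and 130.4 against 128, 132, 151 and 135, with its highest value in Scop replicate 3. Tpi1 was at 154, 127, 145 and 136 against 122, 129, 135 and 132, with its highest in ICI replicate 1. The highest value of G6pdx came again from Scop replicate 3, in 107, 125, 124 and 120.5 against 119, 117, 130.2 and 117. Pgk1 was at 106, 85.7, 97.6 and 94.1 against 96.5, 94.8, 105 and 87.6, with ICI replicates 1 and 2 as its extremes.

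**Figure D1:**
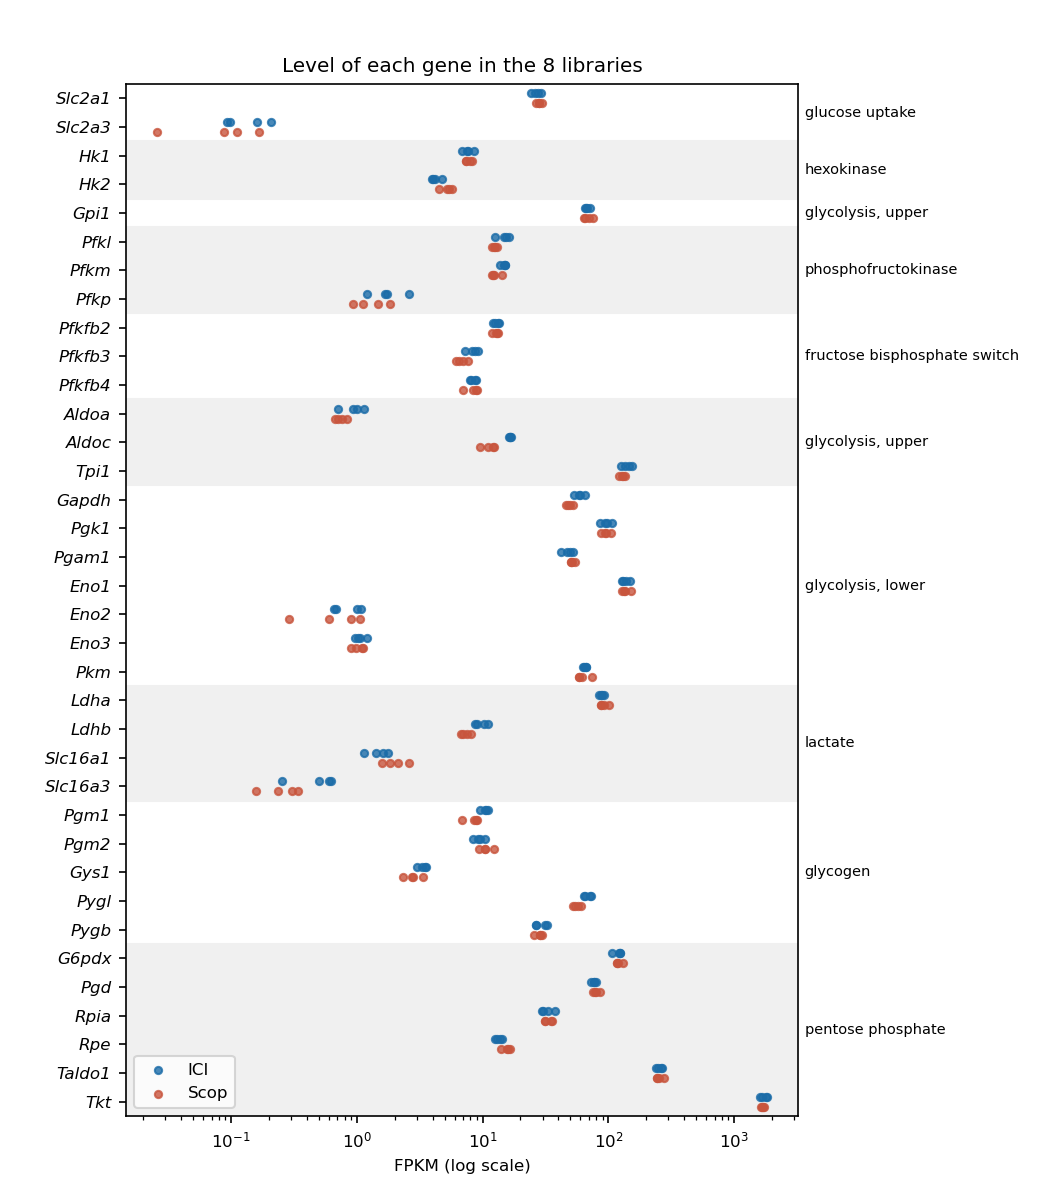
Level of each of the 36 genes in the 8 libraries, as FPKM on a log axis, with genes ordered by their step in the pathway and 1 point for each library (ICI blue, Scop red). Tkt stands highest, at 1602 to 1844 FPKM, and Slc2a3 and Slc16a3 lowest, with at most 0.208 and 0.619.

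For some steps a single isozyme held most of the transcripts, and other steps were divided among isozymes. Slc2a1, the glucose transporter GLUT1, made up 99.6% ± 0.208 of the summed FPKM of Slc2a1 and Slc2a3 (mean ± SD over the 8 libraries). Slc2a3, the high-affinity transporter GLUT3, rested on 6 to 49 fragments in a library. Eno1 made up 98.7% ± 0.280 of the enolases, and Ldha, the lactate dehydrogenase subunit that favours the making of lactate, 91.3% ± 1.58 of the lactate dehydrogenase pair. Phosphofructokinase was spread over Pfkl and Pfkm, at 47.2% ± 2.17 and 47.5% ± 2.79, with Pfkp at 5.38% ± 1.38. Hk1 and Hk2, the hexokinases that trap glucose in the cell, stood at 62.0% ± 3.61 and 38.0% ± 3.61 of their sum.

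Some levels depend on how reads of similar sequences were counted. Words of 100 bases were read from the members' protein-coding transcripts and looked up in transcripts of other genes, on either strand. For 18 members at least 1 word was shared, and for 8 members over 10% were. The share was 67.0% for Pgk1 (with 3 other genes), 53.1% for Gapdh (with 86 other genes), 39.7% for Pgam1 and 39.5% for Eno1. The levels of these genes are therefore uncertain. Aldoa, known as the general aldolase, stood at only 0.675 to 1.14 FPKM, on 43 to 83 fragments, and shared 0 such words. The GENCODE annotation gives the name Aldoa to 2 genes, and the sources used here do not say which one the row of the table counts. The 94.2% that Aldoc held of the 2 aldolases is therefore not a safe measure of the aldolase make-up. The gene lengths implied by the FPKM also differ from the summed exons of the GENCODE models, which join all isoforms. They are over 1.5 times as long for 3 members, Eno3 (5481 against 1739 bases), Ldha (5367 against 3310) and Pkm (7722 against 5001), and for 13 members the summed exons are over 1.5 times the implied length. Levels and shares that compare genes rest on these lengths, and differences of 1 gene between libraries do not. Exons of 15 members also overlap those of another gene, among them Gapdh (with Iffo1) and Pgm1 (with Itgb3bp), both on the other strand, and whether reads were counted by strand is not stated. The part of shared or overlapping sequence in the differences below was not tested.

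**Figure D2:**
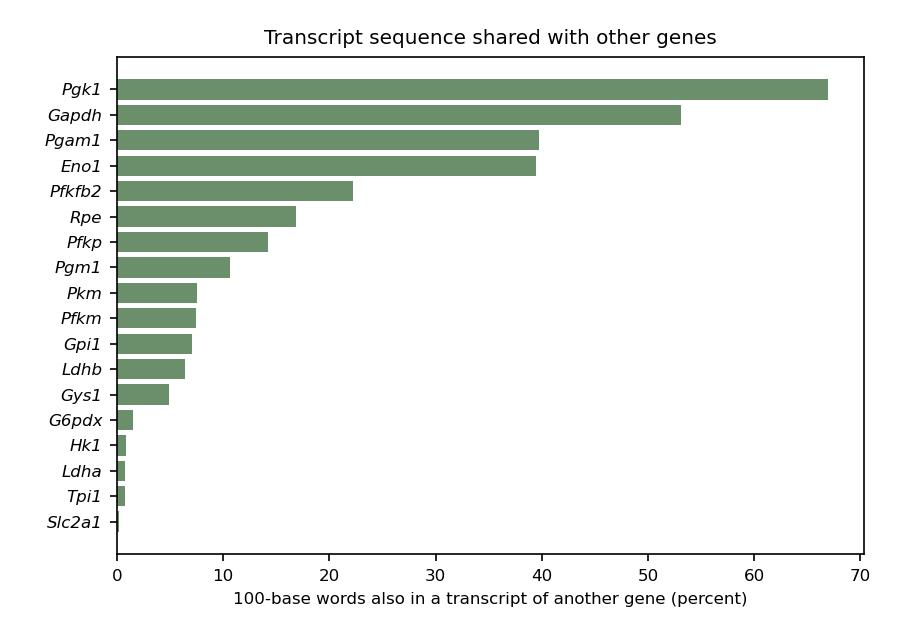
Share of the words of 100 bases in the protein-coding transcripts of a member that also occur in a transcript of another gene (percent), for the 18 members with at least 1 such word. Pgk1, Gapdh, Pgam1 and Eno1 stand above the rest, at 67.0%, 53.1%, 39.7% and 39.5%.

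ICI was set against Scop to ask whether transcripts of dry eye corneas differ under the β2 blocker. Among the members a small group lay higher in ICI, spread over several steps: Aldoc in upper glycolysis, Gapdh in lower glycolysis, Ldhb at lactate, and Pygl and Pgm1 in glycogen use. Fewer lay lower, with Hk2, Rpe and the lactate transporter gene Slc16a1 the clearest. None of the differences passed the test. At an adjusted p under 0.05 limma called 0 of the 34 members that could be tested (a mean of at least 0.5 FPKM) and 0 of all 12100 genes tested, a background of 0%. Adjusted p-values of the members began at 0.0788.

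Without adjustment, 11 of the 34 tested members had a p under 0.05 (32.4%), against 12% of all genes tested, and limma-voom on recovered fragments counted 11 as well. Higher in ICI were 8 members, or 23.5%, against a background of 4.56%, and lower were 3, or 8.82%, against 7.46%. The split of that background moved with the scaling, to 6.07% higher and 5.59% lower after median-ratio scaling, where 9 members were higher and 3 lower. In 5 members all 4 ICI values lay above all 4 Scop values (14.7%), against a background of 2.63% in that direction, and in 0 members all ICI values lay below all Scop values, against 4.36%. The median log2 fold change was 0.02 over the members and -0.02 over all genes tested. Above 0 were 21 members and below it 13, against 5391 and 6709 of all 12100 genes tested. Beyond 0.5 in either direction were Aldoc alone among the members and 95 of all 12100 genes tested. Because the list was drawn up with earlier results known, these shares are a description, may carry that choice, and were not tested as a list.

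**Figure D3:**
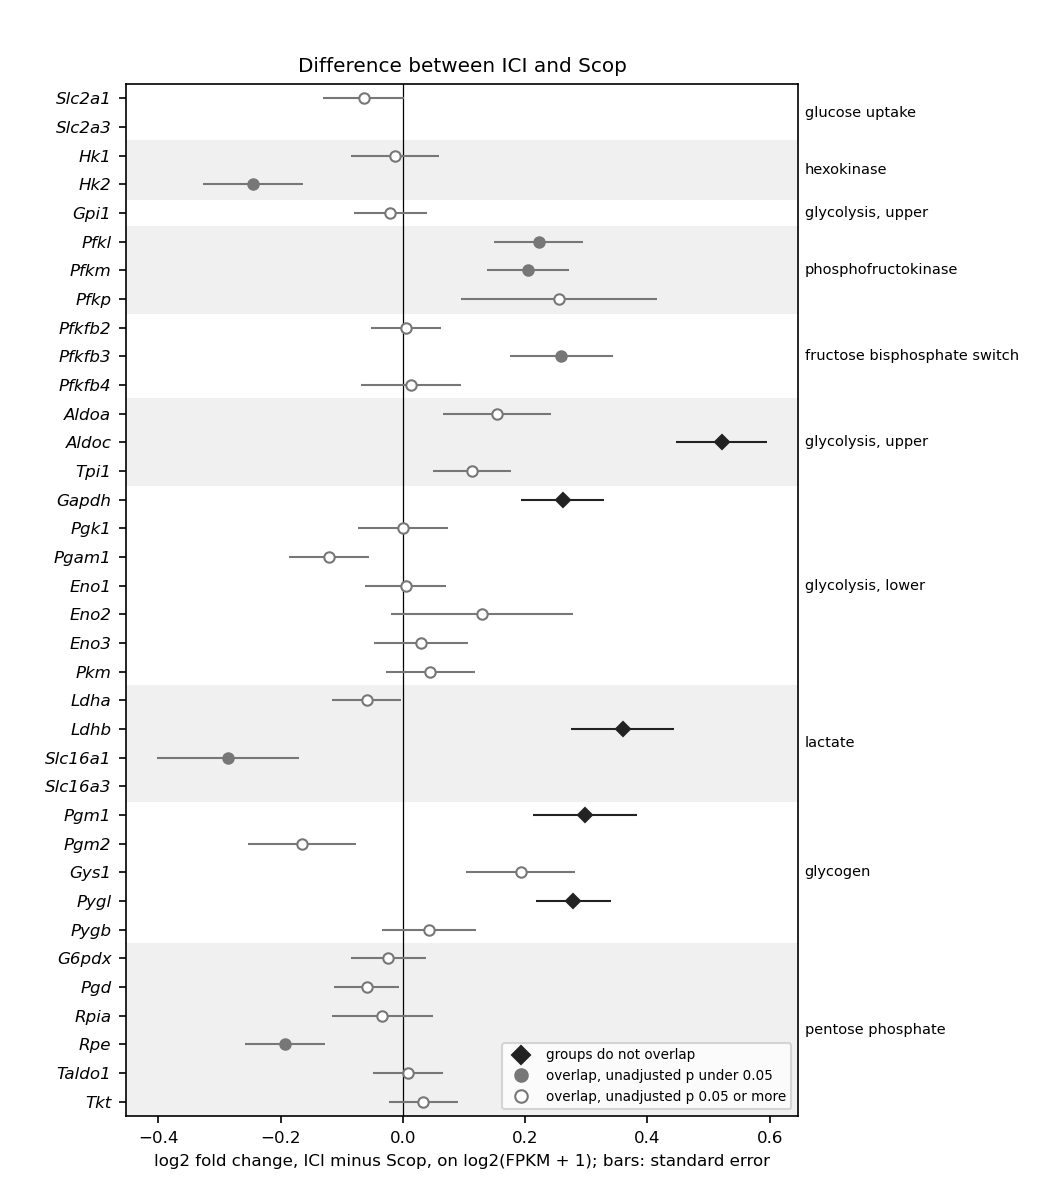
Log2 fold change, ICI minus Scop, of the 34 tested members on the log2(FPKM + 1) scale, with the standard error as a bar, in the order of the pathway. Diamonds mark the 5 members whose groups do not overlap, filled circles further members with an unadjusted p under 0.05, and open circles the rest, which gather around 0.

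Aldoc, the aldolase best known from brain (chromosome 11, 78323073 to 78327781, build GRCm38.p6), showed the clearest separation. ICI replicates 1 to 4 held 16.5, 16.5, 16.1 and 16.9 FPKM, and Scop replicates 1 to 4 held 12.03, 12.3, 9.53 and 11.1. The ICI libraries lay close together and all above the highest Scop library. The means differed by 46.7%, the log2 fold change was 0.52 (SE 0.08) and limma's adjusted p was 0.0788. Without Scop replicate 3, the lowest library, it was 0.45 (SE 0.06, adjusted p 0.0795), and over the 18 alternatives the adjusted p ran from 0.0692 to 0.307.

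In glycogen use, the gene of the phosphorylase that frees glucose units from glycogen and the mutase gene that follows it were both higher. Pygl, the liver-type phosphorylase (chromosome 12, 70190815 to 70227683), was at 65.0, 71.3, 72.8 and 64.0 FPKM in ICI and 60.3, 57.1, 52.6 and 54.3 in Scop replicates 1 to 4. The log2 fold change was 0.28 (SE 0.06) and limma's adjusted p 0.179. Its partner Pygb, the brain-type enzyme, was at 29.1 ± 3.09 against 28.1 ± 1.61 FPKM, with overlap. Pgm1 (chromosome 4, 99929451 to 99987294), the phosphoglucomutase that links glycogen to glycolysis, was at 11.1, 10.5, 10.6 and 9.53 FPKM in ICI and 8.93, 9.01, 6.89 and 8.47 in Scop. Its log2 fold change was 0.30 (SE 0.08, adjusted p 0.256). Older tables use the name Pgm2 for this gene and Pgm1 for its relative. The lengths implied by the FPKM, 2982 and 2609 bases, lie near the exon lengths of the 2 genes under the newer names (2921 and 2590). Pgm2, the relative, pointed the other way with 9.53, 10.5, 9.26 and 8.38 FPKM for ICI against 9.38, 10.5, 12.4 and 10.5 for Scop. Its groups overlapped, and its highest value was that of Scop replicate 3 (-0.16, SE 0.09). Gys1, the synthase that builds glycogen, was at 3.34 ± 0.248 against 2.81 ± 0.410 (0.19, SE 0.09). The summed FPKM of the 5 glycogen genes ran from 111.6 to 129 in ICI and from 100.4 to 111.4 in Scop.

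Ldhb, the lactate dehydrogenase subunit of oxidative tissues (chromosome 6, 142490249 to 142507957), was at 10.99, 10.2, 8.99 and 8.65 FPKM in ICI and 8.08, 7.54, 6.78 and 6.95 in Scop. Every ICI library lay above every Scop library (0.36, SE 0.08, limma's adjusted p 0.193). Ldha, far more abundant, was at 88.2 ± 3.42 against 92.1 ± 6.17 FPKM, and its log2 fold change of -0.06 had a 95% interval from -0.18 to 0.07. The share of Ldhb in the pair was 9.91% ± 0.943 in ICI and 7.41% ± 0.874 in Scop, without overlap. Gapdh, the dehydrogenase often used as a reference gene (chromosome 6, 125161852 to 125166467), was at 65.3, 58.5, 59.2 and 53.1 FPKM in ICI and 52.8, 49.4, 45.9 and 48.0 in Scop. ICI replicate 4 stood just above Scop replicate 1, and the log2 fold change was 0.26 (SE 0.07, adjusted p 0.214).

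**Figure D4:**
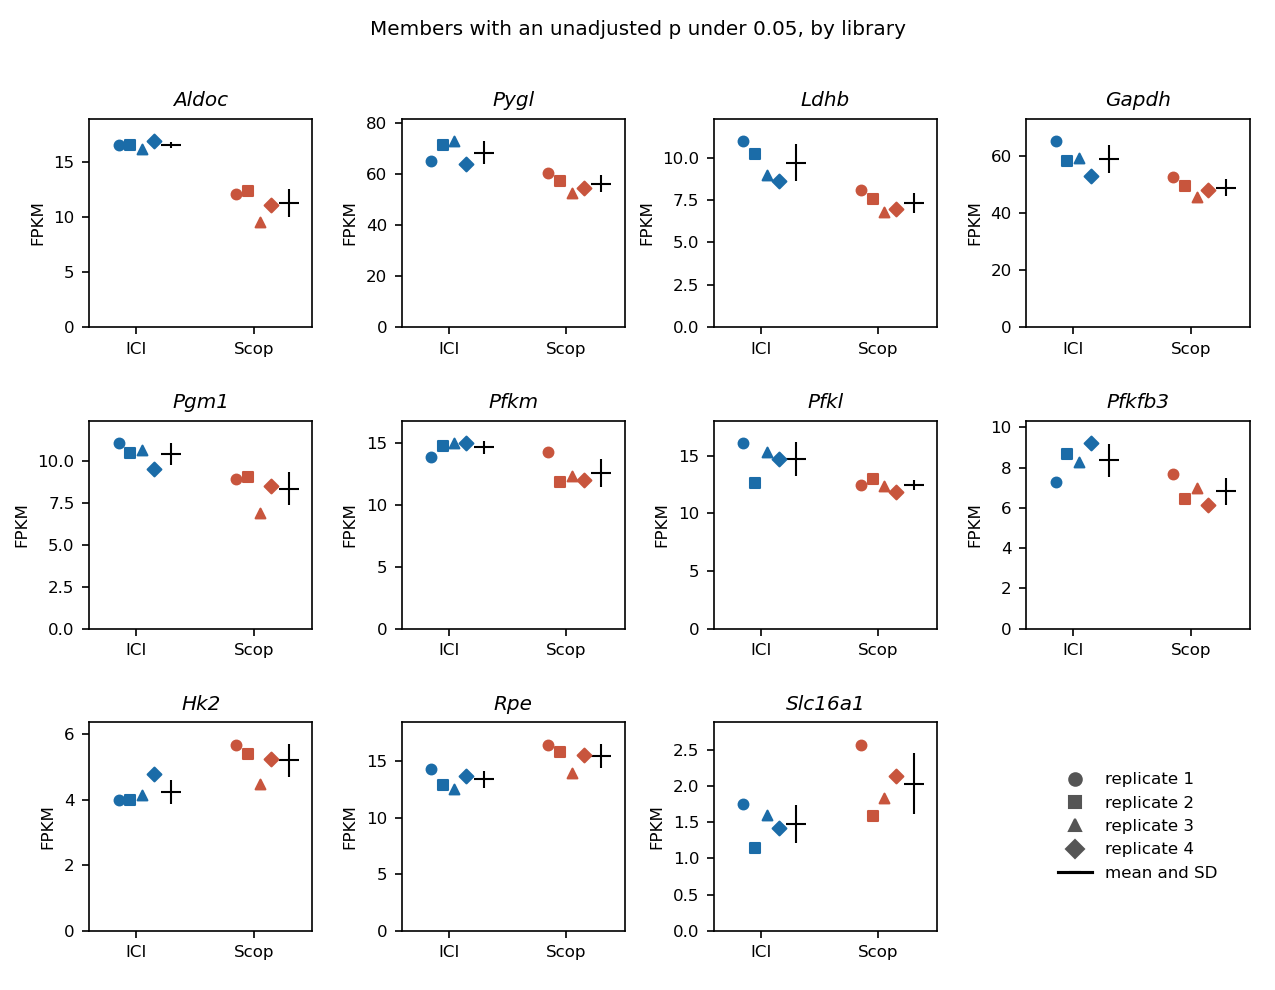
FPKM of the 11 members with an unadjusted p under 0.05 in each library (marker shapes give the replicate number), with mean and SD beside the points. Aldoc, Pygl, Ldhb, Gapdh and Pgm1 do not overlap between the groups, whereas Pfkm, Pfkl, Pfkfb3, Hk2, Rpe and Slc16a1 do.

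As the groups of these 5 members did not overlap, their lowest value had to lie in a Scop library. In all 5 it lay in Scop replicate 3, the library with the low stromal sum. Of all genes tested, 24.9% were lowest in Scop replicate 3, and 5.96%, 5.36% and 13.2% in Scop replicates 1, 2 and 4. The rest were lowest in an ICI library. Without Scop replicate 3, the log2 fold changes of Pygl, Ldhb, Gapdh and Pgm1 were 0.25, 0.33, 0.23 and 0.22. Limma's adjusted p-values of these 4 then lay between 0.165 and 0.206. Of 5 lens genes listed as markers of another tissue, the sum lay between 62.9 and 75.5 FPKM in ICI and between 50.3 and 60.1 in Scop. That sum was nearly all Cryab, a small heat shock protein gene, while the lens-defining genes Cryaa and Mip did not exceed 0.314 and 0.0117 FPKM. Bfsp1, also on the lens list, was at 1.77 to 2.58 FPKM, and the groups overlapped. The part of lens, Cryab-expressing or stromal cells in these differences was not tested.

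To show the regions around the starts of these genes, their RefSeq promoters of build GRCm38.p6 follow. They run from 250 bases before to 50 bases after the start, and Ldha was added as the partner of Ldhb. Capitals mark ACGTG or its reverse complement, and the E-box CACGTG, which contains ACGTG on both strands. ACGTG is a form of the core of the hypoxia response element bound by HIF factors, and other forms were not searched for. The windows are chr11:78322823-78323122 (plus strand) for Aldoc, chr12:70227634-70227933 (minus) for Pygl, chr6:125165724-125166023 (minus) for Gapdh, chr4:99929201-99929500 (plus) for Pgm1, chr6:142507908-142508207 (minus) for Ldhb and chr7:46845554-46845853 (plus) for Ldha. Aldoc and Ldha each have a second RefSeq start without ACGTG, not shown, and the window shown for Ldha was chosen because it holds matches.
Aldoc: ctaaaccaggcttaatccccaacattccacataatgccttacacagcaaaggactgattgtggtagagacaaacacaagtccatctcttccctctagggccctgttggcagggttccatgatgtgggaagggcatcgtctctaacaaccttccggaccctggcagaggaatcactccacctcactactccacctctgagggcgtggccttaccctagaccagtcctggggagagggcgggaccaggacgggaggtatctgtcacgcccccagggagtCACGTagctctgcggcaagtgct
Pygl: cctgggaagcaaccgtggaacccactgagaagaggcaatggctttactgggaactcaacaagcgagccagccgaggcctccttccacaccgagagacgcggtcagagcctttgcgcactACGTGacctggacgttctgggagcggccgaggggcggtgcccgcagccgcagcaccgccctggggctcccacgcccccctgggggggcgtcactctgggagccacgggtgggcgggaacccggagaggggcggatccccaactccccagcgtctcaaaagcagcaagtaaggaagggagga
Gapdh: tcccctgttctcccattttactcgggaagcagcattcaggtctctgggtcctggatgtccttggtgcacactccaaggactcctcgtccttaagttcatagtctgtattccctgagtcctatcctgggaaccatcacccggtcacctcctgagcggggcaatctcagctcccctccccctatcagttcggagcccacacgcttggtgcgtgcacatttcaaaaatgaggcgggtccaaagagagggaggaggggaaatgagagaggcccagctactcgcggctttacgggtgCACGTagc
Pgm1: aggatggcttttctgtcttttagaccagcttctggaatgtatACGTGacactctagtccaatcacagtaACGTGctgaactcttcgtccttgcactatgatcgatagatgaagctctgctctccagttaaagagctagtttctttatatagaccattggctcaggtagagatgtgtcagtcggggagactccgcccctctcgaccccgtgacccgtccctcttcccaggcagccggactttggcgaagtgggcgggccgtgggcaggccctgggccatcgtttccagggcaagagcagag
Ldhb: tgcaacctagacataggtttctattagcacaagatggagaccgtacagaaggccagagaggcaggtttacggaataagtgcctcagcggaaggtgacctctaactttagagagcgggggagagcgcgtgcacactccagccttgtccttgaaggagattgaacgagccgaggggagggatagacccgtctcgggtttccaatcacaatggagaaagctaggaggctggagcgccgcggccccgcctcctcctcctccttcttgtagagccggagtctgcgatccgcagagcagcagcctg
Ldha: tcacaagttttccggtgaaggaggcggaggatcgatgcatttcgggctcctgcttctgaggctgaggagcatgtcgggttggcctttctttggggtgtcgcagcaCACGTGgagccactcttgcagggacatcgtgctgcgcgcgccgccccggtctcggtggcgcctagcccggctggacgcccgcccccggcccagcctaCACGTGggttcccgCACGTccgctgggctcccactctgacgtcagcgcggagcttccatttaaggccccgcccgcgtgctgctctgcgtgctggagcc

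ACGTG was present in the windows of Aldoc, Pygl, Gapdh and Pgm1 and absent from that of Ldhb. Ldha held 5 matches, 4 of them in 2 E-boxes. The match began 27 bases after the start for Aldoc and 42 bases after it for Gapdh. In Pygl and Pgm1 the matches lay before the start. Promoters were matched for 35 of the 36 members, all but Slc2a3. At least 1 window with ACGTG was found for 20 of the 35 (57.1%), against 29.2% of the 9606 tested genes with a promoter in the RefSeq table. Counted by window, 48% of 50 member windows and 19.6% of all 32851 windows held it, and windows of a gene can overlap. The E-box CACGTG was found for 5 of 35 members (14.3%), namely Ldha, Pfkfb2, Pfkfb3, Pfkm and Slc16a1, against 11.7% of the tested genes. ACGTG was present for 8 of the 11 members with an unadjusted p under 0.05, which include both directions, and for 12 of the other 24. These are matches of letters and show neither binding nor a cause.

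At the step that commits glucose to glycolysis, all 3 phosphofructokinase genes had positive values. Pfkm, the muscle-type subunit, was at 13.8, 14.7, 14.98 and 14.99 FPKM in the ICI libraries and 14.3, 11.8, 12.3 and 12.001 in the Scop libraries. Only Scop replicate 1 reached into the ICI range (0.20, SE 0.07, limma's adjusted p 0.293). Pfkl, the liver-type subunit, was at 16.1, 12.7, 15.3 and 14.7 against 12.5, 12.9, 12.4 and 11.9, where ICI replicate 2 lay among the Scop libraries (0.22, SE 0.07, adjusted p 0.294). Pfkp, the platelet-type subunit, was low, at 1.80 ± 0.587 against 1.34 ± 0.399 FPKM (0.26, SE 0.16). The summed FPKM of the 3 ran from 28.59 to 32.5 in ICI and from 25.0 to 28.58 in Scop. Markers of skeletal muscle, which also expresses Pfkm and Eno3, summed to 25.3 to 28.7 FPKM over 9 genes in ICI and to 24.9 to 36.3 in Scop. Of these 9 genes 7 had a mean under 1 FPKM, and the muscle-defining genes Acta1 and Ckm did not exceed 0.0184 and 0.0784 FPKM. Mylpf was at 1.05 to 1.79 FPKM, so that most of the sum came from the remaining gene, whose values are not given here. The part of muscle in the Pfkm and Eno3 values was not tested.

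Pfkfb3, a bifunctional enzyme that makes the main activator of phosphofructokinase, was also among the 8 higher members. It was at 7.28, 8.68, 8.30 and 9.23 FPKM in ICI and 7.69, 6.46, 6.99 and 6.17 in Scop, so that ICI replicate 1 lay under Scop replicate 1. The log2 fold change was 0.26 (SE 0.08, adjusted p 0.295). Its relatives Pfkfb2 and Pfkfb4, which make or break down the same activator, were at 12.8 ± 0.622 against 12.7 ± 0.575 and 8.37 ± 0.428 against 8.31 ± 0.968 FPKM. Within the 3 genes Pfkfb3 held 28.3% ± 2.07 in ICI and 24.5% ± 0.967 in Scop, with overlap.

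Hk2, the inducible hexokinase, lay lower in ICI, with 4.002, 3.99, 4.15 and 4.77 FPKM against 5.68, 5.40, 4.48 and 5.25 in Scop. The overlap came from ICI replicate 4 and Scop replicate 3, and the log2 fold change was -0.24 (SE 0.08, limma's adjusted p 0.302). Hk1, the constitutive form, was at 7.62 ± 0.677 against 7.69 ± 0.459 FPKM, with a 95% interval of the log2 fold change from -0.17 to 0.15. Slc2a1 was at 26.8 ± 2.25 against 28.0 ± 1.38, and Gpi1, the isomerase of glucose-6-phosphate, at 67.6 ± 2.39 against 68.7 ± 5.34.

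Slc16a1, the lactate transporter MCT1, was at 1.75, 1.14, 1.60 and 1.43 FPKM in ICI and 2.57, 1.59, 1.83 and 2.14 in Scop. ICI replicates 1 and 3 lay within the Scop range (-0.29, SE 0.12, limma's adjusted p 0.369), and without ICI replicate 2 or Scop replicate 1 the log2 fold change was -0.22 (SE 0.12) or -0.20 (SE 0.11). Slc16a3, the transporter MCT4 of cells that export much lactate, was too low for the test, at 0.595, 0.619, 0.498 and 0.253 FPKM in ICI and 0.306, 0.339, 0.237 and 0.159 in Scop, on 21 to 90 fragments. Without the filter on low values its log2 fold change was 0.24 (SE 0.09, adjusted p 0.508). The share of Slc16a3 in the pair was 24.8% ± 8.25 in ICI and 11.6% ± 4.41 in Scop, and ICI replicate 4 overlapped with Scop replicate 2. Both genes had low FPKM beside Ldha in these libraries.

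**Figure D5:**
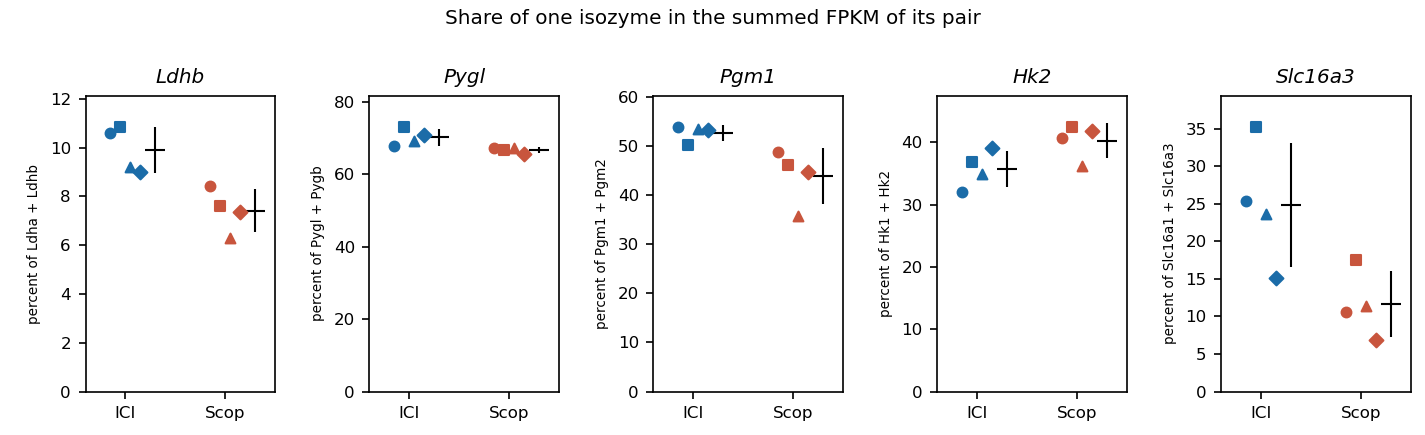
Share of 1 isozyme in the summed FPKM of its pair (percent) in each library, with mean and SD beside the points and marker shapes for the replicate number (circle, square, triangle and diamond for 1, 2, 3 and 4). Ldhb, Pygl and Pgm1 do not overlap between ICI and Scop, and Hk2 and Slc16a3 do.

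Isozyme shares put these differences on a scale that library depth does not touch, though FPKM are already scaled by depth. Pygl held 70.1% ± 2.24 of the phosphorylase pair in ICI and 66.6% ± 0.813 in Scop, and Pgm1 held 52.6% ± 1.71 and 43.9% ± 5.65 of the phosphoglucomutase pair. Both shares were higher in every ICI library than in any Scop library. The Pgm1 share was 35.8% in Scop replicate 3 and 44.7% to 48.8% in the other Scop libraries. Hk2 held 35.7% ± 2.96 of the hexokinase pair in ICI and 40.3% ± 2.77 in Scop, with overlap. Aldoc held 94.6% ± 1.03 of the aldolase pair in ICI and 93.8% ± 0.406 in Scop, with overlap. The phosphofructokinase shares of Pfkl (47.1% ± 2.18 against 47.2% ± 2.50) and Pfkm (47.2% ± 3.71 against 47.8% ± 2.02) overlapped as well. These shares are descriptions without a test.

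In upper glycolysis, Tpi1 and Aldoa had log2 fold changes of 0.11 (SE 0.06) and 0.15 (SE 0.09). In the lower part the members other than Gapdh had no unadjusted p under 0.05. Eno1 and Pgk1 had log2 fold changes of 0.00 and -0.00, with 95% intervals from -0.14 to 0.15 and from -0.16 to 0.16. Pkm, pyruvate kinase, was at 64.8 ± 1.82 against 63.0 ± 7.34 FPKM. Pgam1, a phosphoglycerate mutase, was at 52.6, 42.3, 49.6 and 46.8 FPKM in ICI and 50.9, 50.8, 54.2 and 51.7 in Scop. Only ICI replicate 1 reached the Scop range (-0.12, SE 0.07). Eno3, the muscle enolase, and Eno2, the enolase of neurons, were low, at 1.06 ± 0.103 against 1.02 ± 0.105 and 0.852 ± 0.214 against 0.711 ± 0.341 FPKM. Eno2 was lowest in Scop replicate 3, at 0.288 FPKM or 32 fragments.

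Of the 6 pentose phosphate genes only Rpe had an unadjusted p under 0.05. Rpe, the epimerase of ribulose phosphate, was at 14.3, 12.9, 12.6 and 13.7 FPKM in ICI and 16.4, 15.8, 13.9 and 15.6 in Scop. Scop replicate 3 lay among the ICI libraries (-0.19, SE 0.07, limma's adjusted p 0.303), and without it the log2 fold change was -0.24 (SE 0.06, adjusted p 0.165). Rpia, the isomerase beside it, was at 32.6 ± 3.79 against 33.3 ± 2.42 FPKM, with overlap. Pgd, phosphogluconate dehydrogenase, was at 76.4, 72.2, 79.8 and 76.6 FPKM in ICI and 74.9, 80.1, 85.3 and 77.8 in Scop, highest in Scop replicate 3 (-0.06, SE 0.05). For the oxidative entry enzyme G6pdx the 95% interval of the log2 fold change ran from -0.16 to 0.11, for Taldo1 from -0.12 to 0.14 and for Tkt from -0.09 to 0.16.

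Scop replicate 3 held the highest value of 10 of the 34 tested members (29.4%, against 15% of all genes tested). It held the lowest value of another 10 (29.4%), near the 24.9% of all genes tested. Its high members were Eno1, G6pdx, Gpi1, Ldha, Pfkfb4, Pgam1, Pgd, Pgm2, Pkm and Taldo1, which include much of the trunk of glycolysis and of the pentose phosphate pathway. Its low members were Aldoa, Aldoc, Eno2, Eno3, Gapdh, Ldhb, Pfkp, Pgm1, Pygb and Pygl. The stromal sum of this library was also low, and its part in these values was not tested. ICI replicate 1 held the highest value of another 10 members, among them Gapdh, Ldhb, Pfkl and Pgm1 (29.4%, against 11.8% of all genes tested). In that library the sum of 7 corneal endothelial markers was also highest, and its part was not tested. The summed FPKM of the 36 members was 3177 ± 109 in ICI and 3101 ± 79.6 in Scop, and 1447 ± 31.0 and 1413 ± 56.9 without Tkt.

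Genes of neighbouring steps were read from a list of 74, of which 71 were in the table and 52 could be tested. None passed at an adjusted p under 0.05 in limma, and 8 had an unadjusted p under 0.05 (15.4%, near the background of 12%), 4 higher and 4 lower. Pdk1 and Pdk2, kinases that switch off pyruvate dehydrogenase, were at 18.7 ± 1.56 against 14.96 ± 0.921 and 29.5 ± 2.96 against 24.4 ± 2.30 FPKM (adjusted p 0.181 and 0.299). The other two higher genes were Khk, a fructose kinase (6.44 ± 0.545 against 5.19 ± 0.262), and Slc2a9, a sugar and urate transporter gene (1.02 ± 0.203 against 0.737 ± 0.0648). Among the lower genes were Gpd2, the mitochondrial glycerol phosphate dehydrogenase (19.6 ± 1.30 against 22.7 ± 2.04), Pcx, pyruvate carboxylase (15.9 ± 0.558 against 18.1 ± 1.49), and Ldhd, a dehydrogenase of D-lactate (1.42 ± 0.0706 against 1.79 ± 0.137). Gyg, the glycogenin gene that primes glycogen, was the most abundant of the 71, at 338 ± 38.4 against 294 ± 29.5 FPKM, and did not pass (adjusted p 0.424). It was named after its values had been seen.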

How the data were processed

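The 8 samples share 1 table, in which the authors deposited FPKM per gene. The submitters' processing notes name HISAT2, HTSeq and fastp, and the build mm10. The sources used here do not give versions, roles, gene annotation or strandedness, so reads of overlapping antisense genes may not have been told apart. Columns were matched to samples by title, and their sums lay between 434149 and 448239.

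Whole fragments were recovered from the steps of the FPKM within a relative tolerance of 5e-13, for 99.7% of the genes not at 0 everywhere. Log2(FPKM + 1) was tested two-sided with limma 3.58.1 (R 4.3.3; lmFit, then eBayes with a trend), for the 12100 genes averaging 0.5 FPKM or more, with Benjamini-Hochberg adjustment over all of them and a threshold of 0.05. Fold changes on this scale understate those of low genes, and errors and 95% intervals are limma's. The fit was tested on simulated data. Libraries were checked for duplicates by chi-square (lowest value per degree of freedom 13.8). The members, lists and tests were chosen with earlier results of these data known.

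Values in every library are given at least for members whose groups do not overlap, for up to 6 per direction with the smallest unadjusted p, and for the 6 with the highest mean. Shared words were read from GENCODE transcripts. Of the neighbouring genes, up to 4 per direction with the smallest p are named, except 1 that is not reported here. Sequences are from RefSeq (GRCm38.p6), coordinates are 1-based, and protein sequences are not used here.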

Additional observations from a re-analysis of the deposited data

How the results depend on the processing

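Settings tried were pseudocounts of 0.1 and 5, no filter or 5 FPKM, median-ratio scaling, quantile normalisation, eBayes without trend or robust, limma-voom on recovered fragments, the replicate block, and leaving out each library. A quasi-likelihood count test on the recovered fragments was planned and not run. No member passed at an adjusted p under 0.05 under the 18 settings. Aldoc, Pygl, Ldhb, Gapdh, Pgm1, Pfkm, Pfkl and Pfkfb3 kept their direction and an unadjusted p under 0.05 in all 18, with log2 fold changes of 0.41 to 0.56 for Aldoc. Rpe did so in 18, Hk2 in the 17 that tested it, and Slc16a1 had such a p in 12 of 17. With only genes of at least 5 FPKM, 1 member was lower at an unadjusted p under 0.05, since fewer genes were tested. After median-ratio scaling 7 members were higher without overlap (background 3.56%) and 1 lower (3.26%). After quantile normalisation 7 were higher (3.36%) and 0 lower (3.45%). The cause was not tested. With 1 library left out, members lower without overlap numbered 0 to 2. There were 2 without ICI replicate 1 or Scop replicate 3 (backgrounds of 6.99% and 9.62%). Members higher without overlap then numbered 5 to 8, with 8 without Scop replicate 1 (background 5.29%). Fewer samples are compared in these settings. Over all genes, 0 to 4 were called as higher and 0 to 2 as lower when 1 library was left out, none of them a member. The counts of 4 and 2 came without Scop replicate 4, and 1 was lower without Scop replicate 1 or 3. Unadjusted, 552 genes were higher and 903 lower, against 734 and 676 after median-ratio scaling and 728 and 717 after quantile normalisation. The higher genes numbered 862 without the filter and 318 with 5 FPKM. Whether the replicate numbers pair the libraries was not settled (correlation of deviations -0.00927 to 0.287, over 0.1 in 2 of 4 pairs). With the replicate block 9 members were higher and 3 lower at an unadjusted p under 0.05, against 5.31% and 7.18% of all genes. Members on few fragments, such as Slc2a3 with 6 in Scop replicate 2, are limited by depth.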
